A study of Mus musculus with 15 samples.

Results

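Splicing in skeletal muscle of 6-week-old mice with an induced expanded CUG repeat was compared with that of uninduced mice of the same age. The comparison covers every splicing event with a value in all 5 libraries of week 6, which were 33375 of the 39123 events in the deposited table, in 8528 genes. Of these events, 1348 could not be tied to a gene name. The study sequenced poly-A selected RNA of 15 muscle libraries, 5 at each of 6, 12 and 20 weeks of age, as a mouse model of the human disease myotonic dystrophy type 1 (DM1). The week 6 induced group held 2 libraries from females of genotype TREDT960I-HOM; MDAFrtTA that received doxycycline (dox) from postnatal day 1. Induced replicate 1 was gastrocnemius and induced replicate 2 was quadriceps. The 3 week 6 controls were all gastrocnemius. A pair of no-dox libraries had the same 2 transgenes and no dox, and no dox replicate 2 was the only male among the 15 libraries. The dox control was a female of genotype TREDT960I-HOM without MDAFrtTA that received dox. Every animal thus carried the TREDT960I transgene, the induced and no-dox animals shared both transgenes, and the induced and dox-control animals shared the dox.

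Several features limit these groups as a model of the repeat alone. The labels do not name the promoter behind MDAFrtTA, and the level of the repeat transcript was not analysed here. The 1 quadriceps library of week 6 is an induced one, so at week 6 muscle and induction cannot be told apart for it. The protocols describe RNA of individual muscles but give no animal numbers, so p-values reflect the spread among libraries, which may be technical. Of 7 skeletal muscle marker genes, Acta1, Myh1, Myh4, Tnnt3 and Ryr1 had events in the table, but a splicing fraction gives no expression level, so the tissue label could not be checked by level.

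In DM1 the repeat RNA binds muscleblind-like (MBNL) proteins, which are splicing regulators, and holds them in nuclear foci. MBNL proteins promote adult exon choices during muscle development, so their loss returns many exons towards the fetal pattern. Transcripts of the chloride channel, the calcium pump, Z-disc proteins and the MBNL proteins themselves are well-known targets in muscle.

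The measurement is the percent spliced in (PSI), here a fraction from 0 to 1 given to 2 decimals. For a skipped exon it is the share of transcripts that include the exon, and for a retained intron the share that keep the intron. Where an event concerns first or last exons, splice sites, tandem UTRs or mutually exclusive exons, PSI refers to the form that the event lists, with no direction implied. The week 6 libraries had values for 35199 to 36379 events each. Pearson's r between pairs of them was 0.954 to 0.966, and 14.7% to 18.7% of events had the same PSI in a pair. The 4 lowest of these shares all involved induced replicate 2. Read depth behind each value is unknown, so no interval that needs depth is given, and events with few reads weigh as much as others.

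The clearest difference at week 6 was in Tspan9, which encodes a tetraspanin of the cell membrane. Inclusion of its 100-nt exon (chromosome 6, 128078027 to 128078126, mm10) was 0.04 in no dox 1, 0.04 in no dox 2 and 0.07 in the dox control, against 0.33 in induced 1 and 0.43 in induced 2. Both induced libraries, 1 of each muscle, were far above the controls, which were all gastrocnemius. Mean inclusion was 0.38 in the induced pair and 0.050 ± 0.017 (SD, n = 3) in controls. The fitted difference was 0.303 (SE 0.022, limma adjusted p = 0.00246). No other event was called, a call being a Benjamini-Hochberg adjusted limma p under 0.05 with a difference of at least 0.1. That is 1 of the 31267 events with values in all 15 libraries (0.0032%). In the libraries of weeks 12 and 20 the same exon lay at 0.05 to 0.09 in induced and 0.02 to 0.12 in control muscle. The week 6 difference exceeded the mean of the later differences by 0.268 (SE 0.028), with an unadjusted limma p of 2.17e-06 and an adjusted p of 0.068, above the threshold. The Tspan9 call ended on the logit scale (adjusted p = 0.465), with gastrocnemius libraries alone (0.0839), and in 4 other fits listed with the alternatives. In the 5 of these 6 fits on the PSI scale the difference was 0.28 to 0.33.

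Most of the comparison therefore rests on description. An unadjusted limma p under 0.05 was found for 1303 events (4.17%), 648 higher and 655 lower in induced muscle. As a share this is below the 0.05 expected at that threshold if no event differed. An exact permutation test of 2 against 3 libraries has 10 arrangements, so it cannot go below 0.1 on the absolute difference, or 0.2 with the smaller tail doubled, and none is given for single events. Events are called separated where both induced libraries lay above, or both below, all 3 controls, with means at least 0.1 apart. This held for 1985 of 33375 events (5.95%), 998 higher (2.99%) and 987 lower (2.96%), in 1349 genes (15.8%). The gap between the nearest induced and the nearest control library was at least 0.1 in 479 events, 0.2 in 79 and 0.3 in 20.

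Event types differed in how often they were separated. The share was 10.9% of 1135 tandem UTR events, 8.71% of mutually exclusive exons, 8.05% of first exons, 5.7% of 3' splice sites, 5.59% of 9968 skipped exons, 5.5% of 5' splice sites, 4.71% of last exons and 4.16% of retained introns. Retained introns were higher in 58 and lower in 40, while skipped exons were near even, with 285 higher and 272 lower. Types also differed in the median size of the difference, whatever its sign. It was 0.0367 for tandem UTR and first exon events, 0.015 for last exons and 0.0133 for retained introns. The share with an unadjusted limma p under 0.05 had another order, with 3.7% of first exons, 4.55% of tandem UTR events and 4.85% of skipped exons. Exons of at most 30 nt were separated in 24 of 459 (5.23%), close to the share of all events. Events with a control mean between 0.05 and 0.95 made up 1943 of the 1985 separated events and 23352 of all 33375, and 8.32% of them were separated. Events nearer 0 or 1 can shift by 0.1 in 1 direction only. Events that lacked a value in some later library, and so were outside the fit over all 15 libraries, were separated in 282 of 2108 (13.4%), against 1703 of 31267 (5.45%) inside it. In a fit that dropped missing later values, 0 of the 2108 were called, with 147 at an unadjusted limma p under 0.05 and a lowest adjusted limma p of 0.602.

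A list of 57 known targets of MBNL regulation or of DM1 mis-splicing, here the MBNL list, gave 55 genes with 455 events at week 6. Of these events 29 (6.37%) were separated, 19 higher and 10 lower, in 18 genes. That share is near the 5.95% of all events. By genes it is 32.7%, against 15.8% of all genes, where the list has 8.27 events per gene and all named genes 3.76. The median difference was 0.0, as over all events. None of the 445 in the 15-library fit was called, the lowest adjusted limma p was 0.594, and 27 had an unadjusted p under 0.05 (6.07% against 4.17%). The values of the exons themselves follow, the regulators first. No exon sequence is printed because no mm10 genome was used here.

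Mbnl1 and Mbnl2 encode the MBNL splicing regulators, which also act on their own transcripts. Inclusion of the 1049-nt exon of Mbnl1 (chromosome 3, 60528756 to 60529804) was 0.61, 0.62 and 0.55 in no dox 1, no dox 2 and the dox control, against 0.77 in induced 1 and 0.86 in induced 2. The 2 groups did not overlap, and the fitted difference was 0.244 (SE 0.050, limma adjusted p = 0.594). The 54-nt exon of Mbnl1 (60614683 to 60614736) was at 0.05, 0.07 and 0.05 in the controls in the same order and at 0.12 and 0.33 in the induced libraries. A 36-nt exon of Mbnl1 (60621423 to 60621458) was at 0.10, 0.15 and 0.12, against 0.20 and 0.32. For each of these exons the quadriceps library was the higher of the induced pair, and the gastrocnemius library was also above every control. The 54-nt exon of Mbnl2 (chromosome 14, 120395712 to 120395765) was at 0.09, 0.08 and 0.09 in controls, against 0.14 and 0.25 in induced 1 and 2. Mbnl1 also held 3 of the separated first exon events, the widest of them at 0.50, 0.53 and 0.48 against 0.64 and 0.73. The other first exon events were at 0.40, 0.50 and 0.45 against 0.52 and 0.64, and at 0.38, 0.47 and 0.43 against 0.49 and 0.62. With values so alike they need not be separate changes. In all, 6 of the 29 separated events of the list were in Mbnl1 and 1 in Mbnl2. Every one had a higher PSI in induced muscle, which for first exon events implies no direction.

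Calcium handling and signalling came next. Atp2a1 encodes the fast-muscle calcium pump of the sarcoplasmic reticulum, SERCA1, whose adult form includes a 42-nt exon. This exon (chromosome 7, 126446545 to 126446586) was at 1.00 in each of the 3 controls, 0.87 in induced 1 and 0.41 in induced 2. Both induced libraries were lower, the quadriceps one by far more, and the fitted difference was -0.314 (SE 0.094, limma adjusted p = 1). In Camk2b, a calcium-dependent kinase, a 129-nt exon (chromosome 11, 5977812 to 5977940) was at 0.89, 0.90 and 0.89 in controls, against 0.75 and 0.51. The groups did not overlap. The Camk2b difference was -0.238 (SE 0.058, limma adjusted p = 0.887). Asph, whose gene also encodes the junctional protein junctin, is not on the MBNL list. Its 75-nt exon (chromosome 4, 9607797 to 9607871) was at 0.93, 0.84 and 0.83 in controls, against 0.69 and 0.46, again lowest in quadriceps.

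Clcn1 encodes the muscle chloride channel, whose mis-splicing causes myotonia in DM1. A 79-nt exon (chromosome 6, 42293444 to 42293522) was at 0.14, 0.24 and 0.19 in controls, and at 0.20 in induced 1 and 0.41 in induced 2. The gastrocnemius library lay inside the control range and the quadriceps library above it. A separate event for the same exon was at 0.03, 0.06 and 0.06, against 0.09 and 0.14. These 2 events were named after their values were seen. The Clcn1 event with the smallest p was a 3-nt alternative 3' splice site at 0.30, 0.53 and 0.21, against 0.15 and 0.30, where the groups overlapped. At weeks 12 and 20 its induced libraries were at 0.42 to 0.51 and its controls at 0.18 to 0.31. The week 6 difference minus the mean of the later ones was -0.401, with an unadjusted limma p of 0.00294 and a limma adjusted p of 1.

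Among sarcomere and Z-disc genes, Ldb3 encodes a PDZ and LIM protein of the Z-disc. Its 186-nt exon (chromosome 14, 34555343 to 34555528) was at 0.03, 0.04 and 0.04 in controls, against 0.15 in induced 1 and 0.42 in induced 2. The fitted difference was 0.215 (SE 0.058, limma adjusted p = 1), with no overlap. A 15-nt exon of Ldb3 was at 0.72, 0.81 and 0.76, against 0.82 and 0.93, so the gastrocnemius library passed the highest control by 0.01. Ttn encodes titin, the giant spring protein of the sarcomere. Its 303-nt exon (chromosome 2, 76705670 to 76705972) was at 0.54, 0.45 and 0.52, against 0.61 and 0.79. Neb encodes nebulin, which lines the thin filament, and its 105-nt exon was at 0.34, 0.30 and 0.39, against 0.41 and 0.61. The groups touched closely in Neb and were wider apart in Ttn.

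The remaining separated skipped exons of the MBNL list were in genes of transcription, signalling and the cytoskeleton. Nfix, a nuclear factor I transcription factor, had a 123-nt exon (chromosome 8, 84723728 to 84723850) at 0.29, 0.31 and 0.27 in controls, against 0.39 and 0.63. The kinase Map4k4 had a 231-nt exon at 0.21, 0.32 and 0.32, against 0.43 and 0.61. For Mapt, the microtubule protein tau, a 54-nt exon was at 0.94, 0.87 and 0.90, against 0.84 and 0.53. In all 3 genes the quadriceps library was the farther one. Exons of Mef2c (higher), and of Pdlim5 and Mtmr1 (lower), made up the rest, with gaps of 0.01, 0.08 and 0.07. Apart from skipped exons the list's separated events lay in Map4k4, Arhgef7, Cacnb1, Dtna, Camk2d, Mtmr1, Mef2d, Ttn and Mbnl1.

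**Figure D1:**
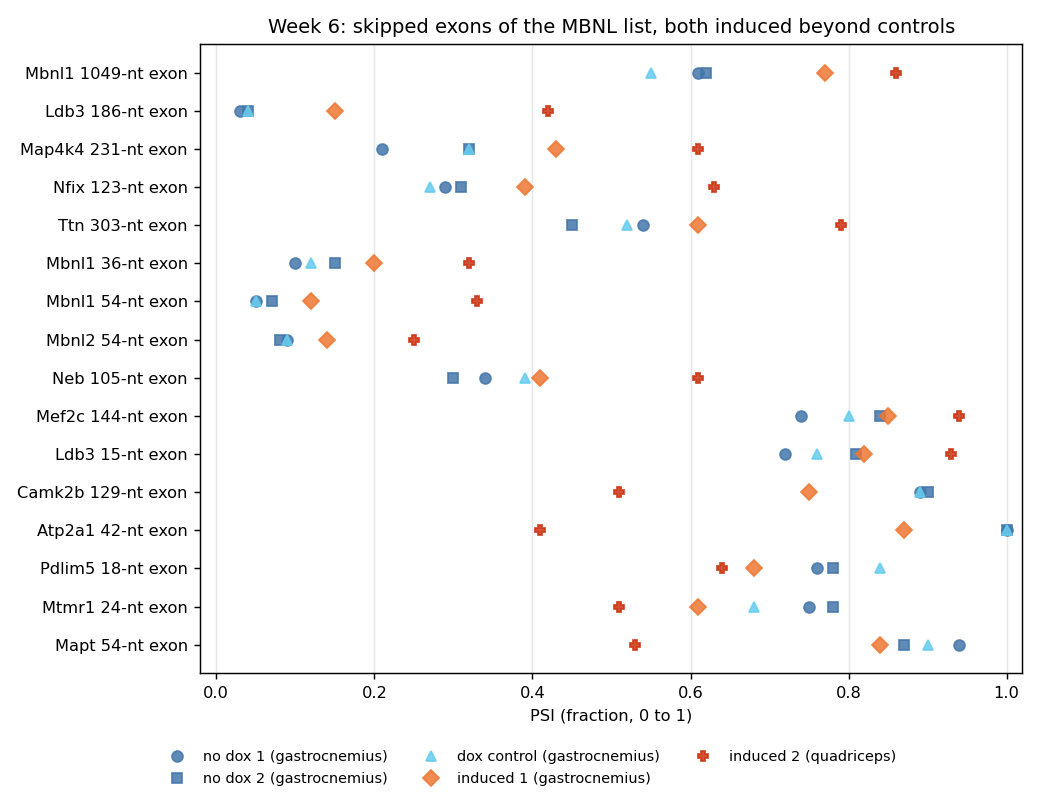
Inclusion (PSI, x axis, fraction 0 to 1) of the 16 separated skipped exons in genes of the MBNL list, 1 row per exon and 1 point per week 6 library, controls in blue and induced libraries in orange and red. Both induced points lie beyond the 3 control points in every row because the exons were selected for that, and the quadriceps point is the farther one in every row.

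In several genes known from DM1 the event with the smallest p was not separated at week 6. The rule took 1 event per gene by its p, which need not be the exon known from DM1. The 24-nt exon of Clasp1, a microtubule end protein, was at 0.16, 0.17 and 0.27, against 0.27 and 0.60, so induced 1 was level with the highest control. For Cacna1s, the voltage sensor of muscle, a 57-nt exon was at 0.99, 0.99 and 1.00, against 0.99 and 0.92. A 93-nt exon of Bin1, which shapes membrane tubules, was at 0.00, 0.01 and 0.01, against 0.02 and 0.07, with means less than 0.1 apart. In Cacna1s and Clasp1 induced 1 lay within the control range or at its edge, and induced 2 beyond it. Insr, the insulin receptor, had a 36-nt exon at 0.09, 0.20 and 0.16, against 0.22 and 0.23. For Tnnt3 it was a 41-nt exon, for Ryr1 a last exon event and for Dmd a first exon event. These differed by -0.02, -0.003 and -0.035 in means.

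The induced pair was unequal in these genes. Among the 29 separated events of the MBNL list, induced 2 lay farther from the control mean than induced 1 in 25 (86.2%), with median distances of 0.19 and 0.113. Over all 1985 separated events it was farther in 1084 (54.6%), with medians of 0.17 and 0.15. Induced 2 is the quadriceps library, so muscle and animal cannot be told apart within week 6. Uninduced libraries of the other weeks give a reference for muscle, 3 of quadriceps and 3 of gastrocnemius, a comparison chosen after the data were seen. Of 28 separated MBNL events with values there, induced 2 lay beyond all 3 uninduced quadriceps libraries in 22 (78.6%). Induced 1 lay beyond all 3 uninduced gastrocnemius libraries in 23 (82.1%), and both held in 19 (67.9%). Over all 1761 separated events with values there, the shares were 53.3%, 52.6% and 29.6%.

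With induced 1 left out, which leaves the quadriceps library as the lone induced one of week 6, the limma fit called 39 events in 38 genes, 29 higher and 10 lower. The lone library is then assumed to vary like the other groups. The MBNL list was chosen with earlier results of these data known, so the share of its events called here is only a description. In 20 of the 39 induced 1 also lay beyond all controls, and in 19 it did not. The 39 included 5 events of the MBNL list, in Atp2a1, Ldb3, Mbnl1, Mbnl2 and Camk2b. That is 1.12% of the list's 445 events in that fit, against 0.125% of all 31267. In others induced 1 was within the control range, such as an intron of Tle2, a Groucho-type corepressor, at 0.02, 0.08 and 0.02 in controls, 0.02 in induced 1 and 0.68 in induced 2. A 53-nt exon of Akap1, which anchors protein kinase A at mitochondria, was at 0.04, 0.04 and 0.05, against 0.07 and 0.46, so induced 1 was 0.02 above the highest control. With induced 2 left out the count was 2, Tspan9 and a 3' splice site of Pck1, the gluconeogenic enzyme PEPCK, which was at 0.01, 0.02 and 0.06 in controls, 0.33 in induced 1 and 0.07 in induced 2.

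**Figure D2:**
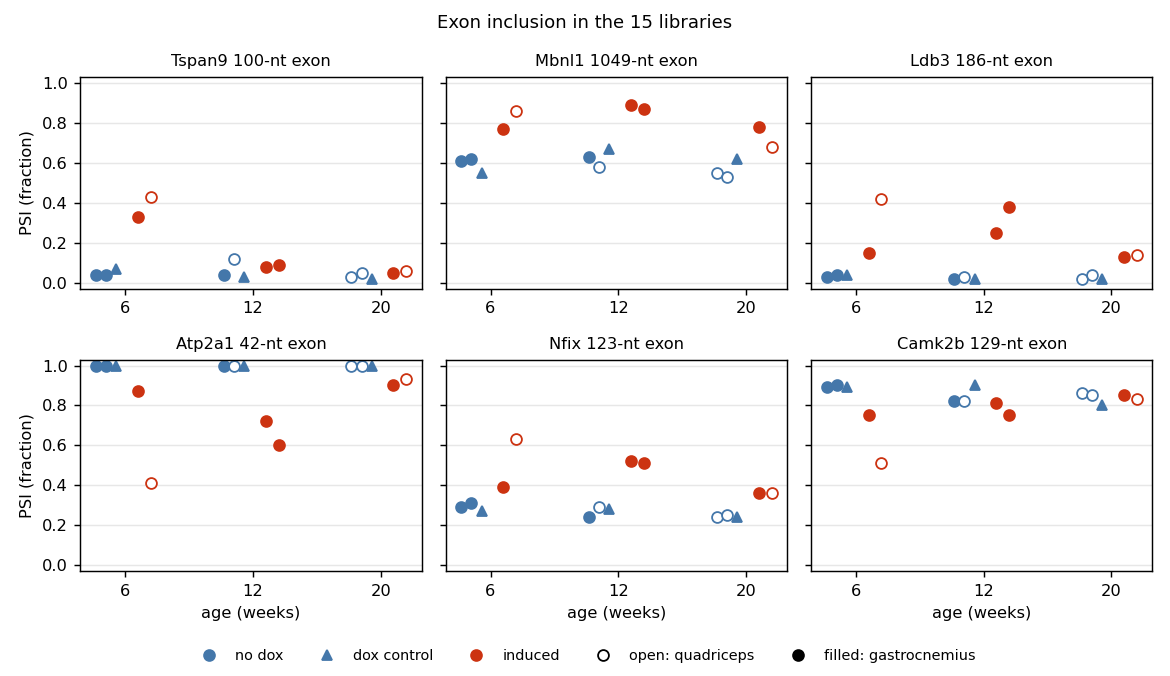
PSI (y axis, fraction) of 6 exons in all 15 libraries by age in weeks (x axis), with no-dox libraries as blue circles, dox controls as blue triangles and induced libraries as red circles, open for quadriceps and filled for gastrocnemius. The Tspan9 exon is high in the week 6 induced pair alone, at 0.33 and 0.43, while at week 12 the other 5 exons have both induced libraries beyond the controls, by the least in Camk2b.

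Later weeks share no library with week 6 and show how far its separated events recurred. Of 1799 events separated at week 6 with values at week 12, 183 (10.2%) were separated in the same direction there and 103 in the opposite one, where 6.64% of all events were separated in either. At week 20 the same direction held for 145 of 1772 (8.18%) and the opposite for 121, against 5.46% of all events. For the MBNL list, 15 of 27 (55.6%) recurred at week 12 in the same direction and 0 in the opposite one, where 12.6% of the list's events were separated. At week 20, 6 of 28 (21.4%) recurred and 1 was opposite, where 4.92% of the list's events were separated. Seen from the later weeks, the 15 are 26.8% of the list's events separated at week 12 and the 6 are 27.3% of those at week 20. The list was chosen with these data known, so the counts are a description.

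**Figure D3:**
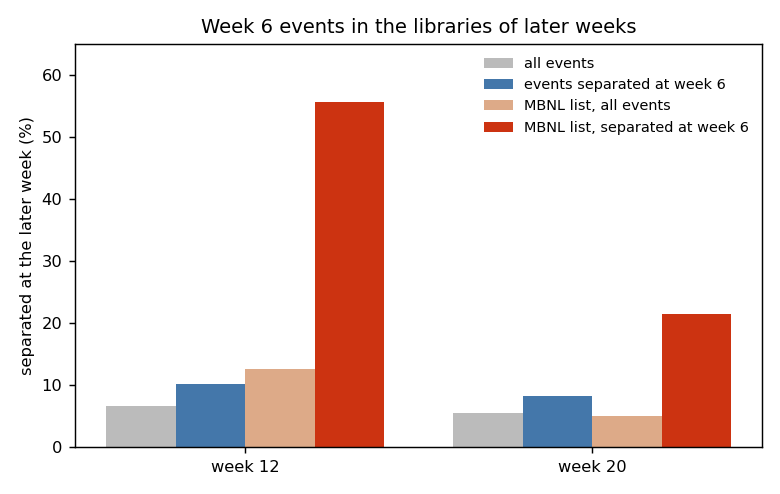
Share of events separated at week 12 and at week 20 (y axis, percent), for all events (grey), events separated at week 6 (blue), all events of the MBNL list (light brown) and MBNL events separated at week 6 (red). For the blue and red bars the direction had to match that of week 6, and the red bar at week 12, from 27 events, is 55.6%.

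The test of whether the week 6 difference itself differed from the mean of those at weeks 12 and 20 gave 0 calls by limma (0.0%) and 0 on the logit scale. An unadjusted limma p under 0.05 was found for 1286 events (4.11%), a share again below the 0.05 expected if no event differed. In the MBNL list, Camk2b had an unadjusted limma p of 0.0251 for this contrast (adjusted p = 1). At week 12 its exon was at 0.81 and 0.75 in the induced libraries and at 0.82 to 0.90 in the controls, and at week 20 the groups overlapped, at 0.85 and 0.83 against 0.80 to 0.86. The 36-nt exon of Mbnl1 had an unadjusted limma p of 0.0461 (adjusted p = 1), with later induced libraries at 0.13 to 0.20 and controls at 0.09 to 0.19. For Ldb3, Nfix and the 54-nt exons of Mbnl1 and Mbnl2 the unadjusted limma p lay between 0.715 and 0.99, which does not show that the weeks were alike. A 33-nt exon of Ank3, which encodes the membrane scaffold ankyrin-G, was at 0.01, 0.03 and 0.01 in week 6 controls, against 0.09 and 0.17. Its later libraries lay between 0.03 and 0.09 whether induced or not, and the unadjusted limma p for the contrast was 0.0046 (adjusted p = 1).

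The other gene lists gave 0 calls each by limma, and their medians of the difference lay between -0.0075 and 0.0017. Their separated shares lay on both sides of the 5.95% of all events. They were 6.62% of 408 events for RNA-binding proteins and splicing factors, 8.96% of 469 for transcription and chromatin, 7.17% of 307 for insulin signalling, kinases and phosphatases, and 6.58% of 76 for regenerating muscle. Lower shares were 5.93% of 455 events for vesicle traffic, 5.45% of 220 for the sarcomere and Z-disc, 4.38% of 593 for the sarcolemma and cytoskeleton, and 4.1% of 195 for excitation-contraction coupling. Energy metabolism had 2.84% of 141, markers of other cell types 2.67% of 75 and broadly expressed control genes 1.25% of 80. Lists share genes, Mbnl1 and Mbnl2 among them.

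**Figure D4:**
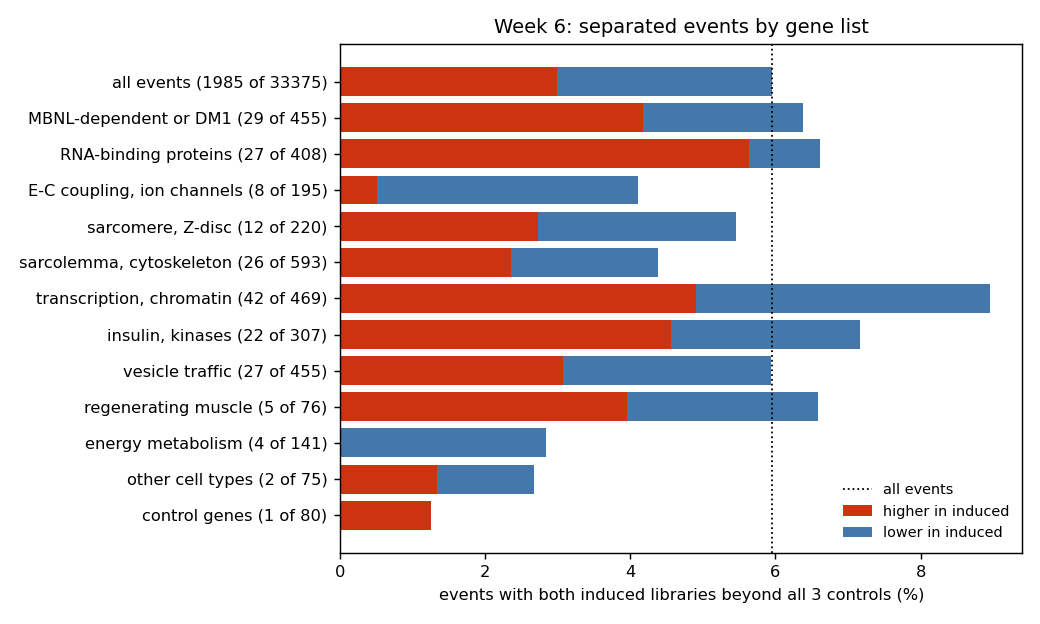
Share of events with both week 6 induced libraries beyond all 3 controls and means at least 0.1 apart (x axis, percent), for all events and 12 gene lists, split into higher (red) and lower (blue) in induced muscle. The dotted line marks 5.95% for all events, and the list counts stand beside each name.

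Among RNA-binding proteins, 23 separated events had a higher PSI in induced muscle and 4 a lower one. Mbnl1 and Mbnl2, described above, held 6 and 1 of the 23. Many of the 27 are of types whose PSI implies no direction, and some overlap, so the split is only a count. Tia1 and Tial1, related RNA-binding proteins of stress granules and splicing, held 5 of the 23. A 66-nt exon of Tia1 was at 0.12, 0.24 and 0.06 in controls, against 0.36 and 0.46. At week 12 it was lower in both induced libraries, at 0.22 and 0.22 against 0.29 to 0.54. A 3' splice site event that shares the start of this exon was higher too at week 6, so the pair are not separate changes. The 51-nt exon of Rbm39, a splicing coactivator, was at 0.03, 0.03 and 0.11, against 0.26 and 0.23. For Tardbp, which encodes TDP-43, a 3' splice site event was at 0.10, 0.12 and 0.16, against 0.26 and 0.26. At weeks 12 and 20 the Rbm39 exon lay at 0.02 to 0.36 in controls and 0.02 to 0.16 in induced libraries. The Tardbp event lay at 0.19 to 0.38 and 0.06 to 0.35 there, so later controls reached the week 6 induced values in both. The retained intron of U2af2, the factor that binds the polypyrimidine tract, was at 0.25, 0.20 and 0.38, against 0.73 and 0.68. It lay between 0.20 and 0.75 in the 10 later libraries, across both groups. All of these had a limma adjusted p of 1.

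Separated events of the sarcolemma and cytoskeleton list were 14 higher and 12 lower. Dtnb encodes beta-dystrobrevin, a partner of dystrophin. Its 90-nt exon was at 0.78, 0.74 and 0.64 in controls, against 0.41 and 0.26, and 1 later library lacked a value. With missing later values dropped, the Dtnb difference was -0.41 (SE 0.083, limma adjusted p = 0.704). In Clip1, a microtubule plus-end protein, a 6-nt exon (chromosome 5, 123581592 to 123581597) was at 0.05, 0.05 and 0.03, against 0.16 and 0.52. The quadriceps library was far above the gastrocnemius one, and both were above the controls. A 57-nt exon of Sorbs2, an adaptor of the Z-disc and cell adhesions, was at 0.83, 0.82 and 0.77, against 0.67 and 0.63. First exon events of Plec, the cytoskeletal linker plectin, accounted for 4 of the 14 higher ones.

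The transcription and chromatin list had the highest share of separated events. Its median size of the difference, whatever the sign, was 0.0317, against 0.0217 over all events. Of its tested events 4.7% had an unadjusted limma p under 0.05, against 4.17% of all. Single genes supplied many of the separated events. Tcf7l2, a transcription factor of Wnt signalling, held 9, Phf21a, a chromatin reader, 5 and Foxp1, a forkhead factor, 5 of the 42. The widest gap was in a first exon event of Foxp1, at 0.48, 0.30 and 0.34 in controls, against 0.71 and 0.72. At week 12 it was lower in both induced libraries, at 0.15 and 0.14 against 0.26 to 0.35. A 73-nt exon of Tcf7l2 was at 0.33, 0.17 and 0.28 against 0.52 and 0.37, with a limma adjusted p of 0.887.

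In the kinase and vesicle lists, induced 2 was the farther from the control mean in 16 of 22 and 18 of 27 separated events (72.7% and 66.7%, against 54.6% of all). Other lists lay on both sides of 54.6%. The share was 75.0% for the sarcomere and Z-disc and 63.0% for RNA-binding proteins. It was 45.2% for transcription and chromatin and 40.0% for regenerating muscle. The higher shares are not separate from that of the MBNL list, because lists share genes. Separated events of Ldb3, Ttn, Neb and Pdlim5 count in the sarcomere list too, and those of Mbnl1 and Mbnl2 among RNA-binding proteins. All of these had induced 2 farther. Chka encodes choline kinase, and its mutually exclusive exons were at 0.09, 0.15 and 0.08, against 0.26 and 0.49. A 35-nt exon of Pdp1, the phosphatase of pyruvate dehydrogenase, was at 0.13, 0.16 and 0.08, against 0.25 and 0.51. The 149-nt exon of Synj2, a phosphoinositide phosphatase, was at 0.24, 0.16 and 0.22, against 0.36 and 0.47. Both induced libraries exceeded all controls in these 3 events, and quadriceps was the higher in each. A 21-nt exon of Ap1b1, a clathrin adaptor subunit, was at 0.11, 0.14 and 0.16, against 0.22 and 0.37. The Ap1b1 exon was at 0.23 to 0.31 in the 4 later induced libraries and 0.09 to 0.16 in their controls, and that of Synj2 at 0.29 to 0.42 and 0.12 to 0.23.

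Markers of other cell types had 2 separated events. A first exon event of Ptprc, the leukocyte antigen CD45, was at 0.53, 0.52 and 0.55, against 0.24 and 0.07, and a last exon event of Col1a2, a fibroblast collagen, at 0.14, 0.18 and 0.24, against 0.30 and 0.44. PSI does not give the amount of such cells, so their part in other results was not tested. The 1 separated event among control genes was a 5' splice site of the chaperonin subunit Cct3, at 0.61, 0.60 and 0.58, against 0.68 and 0.74.

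The events with the widest gaps, taken as 1 event per gene, were mostly outside the lists. Selection on the gap favours events whose induced libraries lie together. Usp15, a deubiquitinating enzyme, led those higher in induced muscle, with a last exon event at 0.04, 0.03 and 0.10 in controls, against 0.57 and 0.67. Its gap was 0.47, yet in the 10 later libraries it lay between 0.02 and 0.44, with induced and control libraries overlapping. The other 5 separated last exon events of Usp15 were also higher, but they pair the same transcripts in turn and are not separate changes. A 3' splice site event of Tatdn3, a TatD-family nuclease, was at 0.28, 0.27 and 0.25, against 0.64 and 0.64. A 69-nt exon of Resf1, a silencer of retroelements (chromosome 6, 149324732 to 149324800), was at 0.19, 0.23 and 0.24, against 0.57 and 0.58. The retained intron of Taf1d, a subunit of the RNA polymerase I factor SL1, was at 0.38, 0.23 and 0.49, against 0.89 and 0.81. In Pcnt, the centrosome scaffold pericentrin, a first exon event was at 0.47, 0.36 and 0.45, against 0.82 and 0.89. It was higher in both week 20 induced libraries too, at 0.65 and 0.69 against 0.39 to 0.57. At week 12 the groups overlapped, at 0.84 and 0.68 in induced libraries against 0.48 to 0.71 in controls. The others among the 10 widest were in Bcas3, in 5530601H04Rik, in U2af2, in Cbx7, a Polycomb protein, and in an unnamed tandem UTR event.

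Among events lower in induced muscle, a 33-nt exon of Ntm, the adhesion molecule neurotrimin (chromosome 9, 29000705 to 29000737), was at 0.64, 0.70 and 0.75, against 0.23 and 0.27. A last exon event of Casp4, an inflammatory caspase, was at 0.72, 0.65 and 0.76, against 0.17 and 0.28. Both lacked values in later libraries, as did events of Cwc22, a spliceosome-associated factor, the intron of Dnase1 and the first exon of Mylk, a myosin light chain kinase. With missing later values dropped, the limma adjusted p of these 5 events was 0.602 to 1, lowest for Dnase1, and the Ntm difference was -0.452 (SE 0.14). The Dnase1 intron, of a gene for a secreted nuclease, was retained at 0.83, 0.76 and 0.66, against 0.34 and 0.34. At week 12 it was again lower in both induced libraries, at 0.31 and 0.25 against 0.73 to 0.83. At week 20 the groups overlapped, at 0.62 and 0.82 in induced libraries against 0.73 and 0.79 in the controls with a value. A 501-nt exon of Nsmf (chromosome 2, 25055636 to 25056136) was at 0.69, 0.77 and 0.63, against 0.32 and 0.32. At later weeks it lay between 0.49 and 0.71 in every library. The 38-nt exon of Arpp21, a cyclic AMP-regulated phosphoprotein, was at 0.57, 0.47 and 0.44, against 0.15 and 0.14. The fitted value for Arpp21 was -0.383 (SE 0.063), and its limma adjusted p was 0.546. Just outside these 10, and named after its values were seen, a first exon event of Adgrl3, a latrophilin adhesion receptor, was at 0.61, 0.66 and 0.63, against 0.33 and 0.30. None of these 20 events, 1 per gene, was called in either fit, and Arpp21 had the lowest adjusted limma p of those in the 15-library fit.

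**Figure D5:**
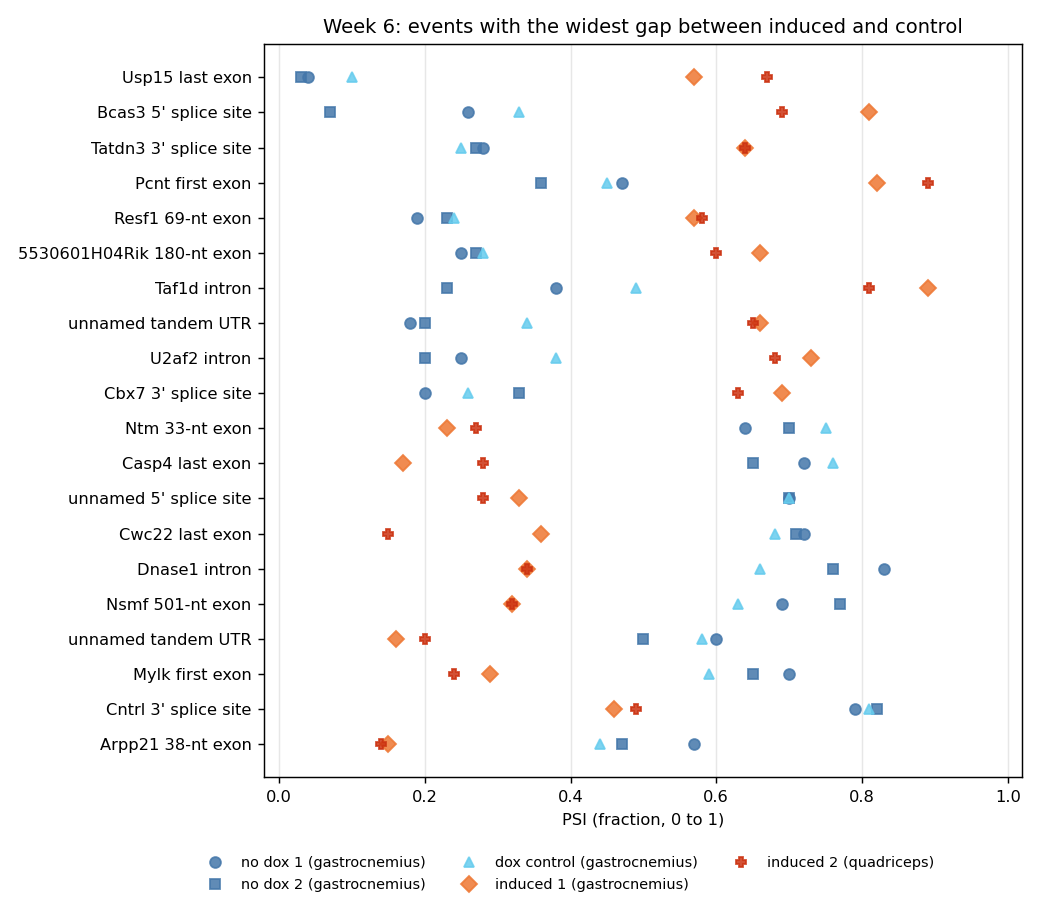
PSI (x axis, fraction 0 to 1) of the 10 events with the widest gap in each direction, at most 1 per gene, 1 row per event and 1 point per week 6 library, controls in blue and induced libraries in orange and red. The induced pair lies close together in most rows, and the gap ranges from 0.29 to 0.47.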

How the data were processed

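Values are the fractions (PSI, 0 to 1) deposited by the authors, whose table names MISO as their source. The submitters' processing notes name TopHat and mm10. The sources used here do not give versions, annotation or a read minimum. Libraries were matched to columns by the identifier in their titles, since column names number the week 6 induced pair the other way round. The symbol column named another gene than the event's gene ID in 5219 of 8061 events, so names were taken from gene IDs or positions (RefSeq, GRCm38.p6).

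The test was limma 3.58.1 (R 4.3.3, variance trend, robust) over the 31267 events with values in all 15 libraries, with a mean per week and arm and a muscle term, two-sided, Benjamini-Hochberg adjusted over all events tested. The other 2108 week 6 events entered only the alternative fits that drop missing later values or use week 6 alone. The fit was tested on simulated data. Named events were calls, the 10 widest gaps per direction (1 event per gene), the 3 smallest p-values per list and 15 fixed genes. Further separated events of the lists were named after their values were seen. Members and lists were chosen with earlier results of these data known. Alternatives changed the muscle term, scale, moderation, filters, minimum difference, controls and libraries, and added a replicate block. The fit with the block left out the dox controls.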

Additional observations from a re-analysis of the deposited data

Results flagged for a closer look

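In 6 named events the week 6 and a later difference were both separated and opposite in direction. The Tatdn3 3' splice site, 0.373 higher in induced muscle at week 6, differed by -0.178 at week 20. The 69-nt exon of Resf1, 0.355 higher at week 6, differed by -0.223 at week 20. The Foxp1 first exon event, 0.342 higher at week 6, differed by -0.165 at week 12. In Tia1 the 66-nt exon, 0.27 higher at week 6, differed by -0.2 at week 12, and the 3' splice site event that overlaps it, 0.19 higher at week 6, by -0.148. A last exon event of Arhgef7, on the MBNL list, differed by -0.158 at week 6 and by 0.127 at week 20. In the limma test of week 6 against the later weeks, the unadjusted p was 1.70e-04 for Tatdn3, 0.00647 for Resf1 and 0.00254 for Foxp1, and none passed adjustment (limma adjusted p = 0.884, 1 and 1). For the Tia1 exon, the Tia1 splice site and Arhgef7 it was 0.0416, 0.251 and 0.0379 (limma adjusted p = 1 for each). Over all events, 103 were opposite at week 12 and 121 at week 20.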

How the results depend on the processing

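The week 6 count of limma calls was 1 and became 0 on the logit scale, with the 5 week 6 libraries alone, gastrocnemius alone, no-dox controls alone, dox controls alone or a replicate block, where 1354, 1803, 1320, 1369, 2069 and 1372 events had an unadjusted limma p under 0.05. For Tspan9 the adjusted p was 0.465, 0.90, 0.0839, 0.148, 0.687 and 1 in the same order, and the cause was not tested. The replicate block fit also left out the dox controls. The count was 2 without variance trend and robust moderation, which added an Adgrl3 first exon event. Leaving out 1 library gave 1 to 39 calls, Tspan9 in each of these fits. Dropping week 6 induced replicate 1 gave 39. Dropping week 6 induced replicate 2, the week 6 dox control or week 12 no dox replicate 2 gave 2, and dropping any other library gave 1. The count against later weeks was 0 and became 1 with gastrocnemius alone and 0 to 2 with 1 library left out, 2 without week 6 induced replicate 1 and 1 without either week 20 induced library. Replicate numbers did not pair the samples: deviations of same-numbered no-dox and induced libraries had r = 0.01 over events.

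The 1985 separated events became 646 with a minimum difference of 0.2, 4746 with none, 4157 with the gastrocnemius induced library alone, 3407 with no-dox controls alone, 5742 against the dox control alone and 3116 to 5486 with 1 library left out. The 29 of the MBNL list became 7, 72, 49, 48, 74 and 38 to 101, alternatives chosen after seeing the data. With fewer libraries the condition is easier to meet. Of values for single named events, 1542 kept their side of the threshold, 8 gained a call, all without induced replicate 1, and 6 lost one, all of Tspan9. Unknown read depth limits every value.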
